A study of Arabidopsis thaliana with 12 samples.

Results

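Ribosome biogenesis factors are the proteins that transcribe ribosomal RNA, cut and modify it, and fold it together with ribosomal proteins into the small and large ribosomal subunits. The list examined here held 57 Arabidopsis genes, named by symbol or locus, and a member was measured where the array had a probe set that the probe table assigns to that gene alone. This left 33 members of 13355 genes measured in that way. Of the others, 23 had no named probe set, among them the large-subunit factors REIL1 and REIL2, and AT5G27120 had only a probe set shared with another gene. Each measured member had a single probe set.

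Ribosome assembly starts in the nucleolus, where RNA polymerase I makes a long precursor RNA. Box C/D and box H/ACA small nucleolar ribonucleoproteins (snoRNPs) guide its chemical modification, and the U3 snoRNP gathers the small-subunit processome, which releases the small-subunit RNA. Separate factors, among them the PeBoW complex and several GTPases and RNA helicases, build the large subunit. In plants these genes are known for high expression in growing and dividing tissue, and mutants in many of them have short roots or pointed leaves.

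Roots of 4-week-old hydroponic plants, kept under 8 h light and 16 h dark, were profiled on 12 Affymetrix ATH1 arrays, 1 per sample. The groups were wild-type Col-0 at 23 °C, Col-0 after 24 h at 4 °C, ozs3 (overly zinc sensitive 3, a mutant in the Col-0 background) at 23 °C, and ozs3 after 24 h at 4 °C, with 3 biological replicates each. Which gene carries the ozs3 mutation is not in the labels, so the genotypes were not checked through a targeted gene. Levels are log2 signals as the authors normalized them with RMA, differences are log2 values ± SE from limma, and a call is a Benjamini-Hochberg adjusted p under 0.05 over all 22746 probe sets.

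The temperature labels were checked first. All 6 measured cold-regulated genes rose in the cold in both genotypes, among them COR15A, a gene for a chloroplast protein of freezing tolerance. Set against their means over all arrays, those 6 genes had a median of -0.94 in ozs3 replicate 3 at 23 °C and of -2.18 and -2.15 in replicates 1 and 2, so that this array stood apart from its group. All 33 members were well inside the measured range, with means over the 12 arrays between 6.22 and 11.8 on the log2 scale.

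Cold was accompanied by higher signals of most factors in wild-type roots. Of the 33 members 29 rose in Col-0 and 0 fell, with a median difference of 0.70, and 4 were not called. Over all probe sets 20.4% were called higher and 23.5% lower, and the median difference was -0.0033. For 29 members every cold array lay above every control array, as did 24.6% of all probe sets. A rise of at least 2-fold was called for 11 members, or 33.3% of them, and for 4.04% of all probe sets. The median of the members, each set against its own mean over 12 arrays, was -0.41, -0.32 and -0.36 in the Col-0 arrays at 23 °C and 0.37, 0.33 and 0.49 at 4 °C.

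**Figure D1:**
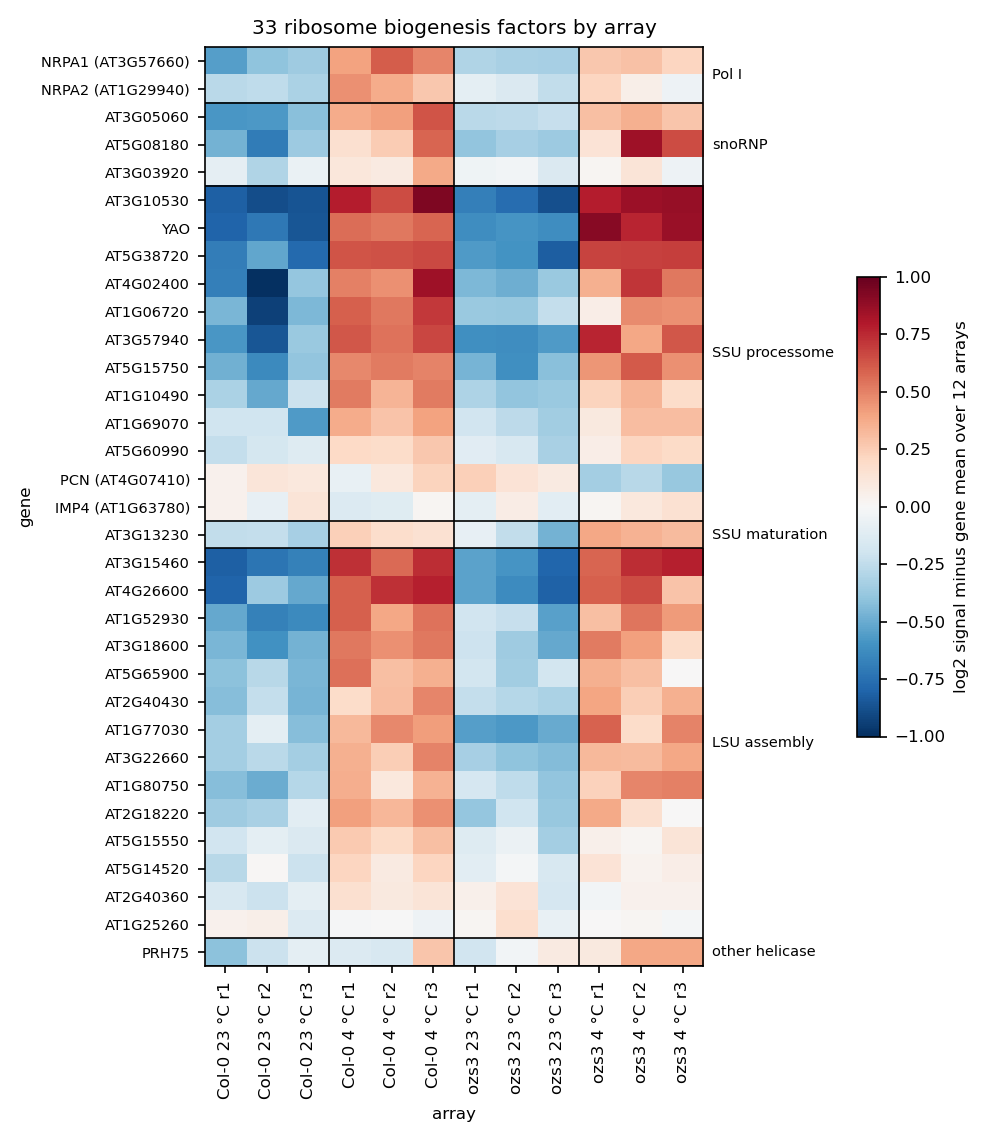
Log2 signal of the 33 measured factors (rows, by role) in each of the 12 arrays (columns, r1 to r3 are replicates), minus the gene's mean over all arrays; colours are cut at -1 and 1. Most rows are blue in the 23 °C columns and red in the 4 °C columns of both genotypes, while PCN is lowest in the ozs3 arrays at 4 °C and AT1G25260 and IMP4 change little.

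Both measured subunits of RNA polymerase I, the enzyme that makes the ribosomal precursor RNA, rose in Col-0. NRPA1 (AT3G57660), the largest subunit, stood at 6.90, 7.04 and 7.09 at 23 °C and at 7.85, 8.05 and 7.94 at 4 °C (difference 0.93 ± 0.08, limma adjusted p = 5.98e-07). NRPA2 (AT1G29940), the second-largest subunit, stood at 7.91, 7.93 and 7.86 at 23 °C and at 8.64, 8.55 and 8.45 at 4 °C (0.64 ± 0.09, limma adjusted p = 3.65e-05). The groups did not overlap for either gene.

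The 3 measured snoRNP proteins rose in Col-0 as well. AT3G05060, a homologue of NOP58, a core protein of box C/D snoRNPs, stood at 9.66, 9.66 and 9.82 at 23 °C and at 10.61, 10.65 and 10.87 at 4 °C (1.00 ± 0.09). The proteins of box H/ACA snoRNPs, which guide pseudouridylation, were represented by the NHP2 homologue AT5G08180 (0.85 ± 0.16) and the GAR1 homologue AT3G03920 (0.35 ± 0.10, adjusted p = 0.0101). The limma call of AT3G03920 was lost on leaving out replicate 2 of the 23 °C Col-0 arrays (adjusted p = 0.0505) or replicate 3 of the 4 °C Col-0 arrays (0.0540).

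Of the 12 measured factors of the small-subunit processome 10 rose in Col-0, 7 of them at least 2-fold, and the median was 1.11. AT3G10530, homologous to yeast UTP7, stood at 7.48, 7.41 and 7.44 in Col-0 at 23 °C and at 9.08, 8.95 and 9.24 at 4 °C, a 3.13-fold rise (1.64 ± 0.09, limma adjusted p = 1.25e-08). It was the member with the largest difference, and its rise ranked 303rd among all probe sets. The cold and control arrays were separated by more than 1 log2 unit.

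YAO, a nucleolar WD40 protein homologous to the U3 snoRNP protein RRP9 of yeast and required for embryo sac development, stood at 8.08, 8.16 and 8.03 in Col-0 at 23 °C and at 9.44, 9.41 and 9.46 at 4 °C (1.35 ± 0.07, 2.55-fold). AT5G38720, homologous to yeast RRP7, stood at 8.05, 8.22 and 7.96 and at 9.37, 9.38 and 9.40 (1.30 ± 0.09, 2.47-fold). AT4G02400, homologous to yeast UTP14, stood at 7.70, 7.36 and 8.00 and at 8.89, 8.84 and 9.23 (1.30 ± 0.15). The replicates of AT4G02400 were spread more widely than those of YAO and AT5G38720, yet its cold arrays all lay above its control arrays.

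The other processome members that rose in Col-0 were the homologues of BMS1 (AT1G06720, a GTPase, 1.22 ± 0.14), of NAT10, an RNA acetyltransferase (AT3G57940, 1.21 ± 0.12, and AT1G10490, 0.80 ± 0.09), of IMP3 (AT5G15750, 1.00 ± 0.09), of NOP14 (AT1G69070, 0.67 ± 0.11) and of the RNA helicase RRP3 (AT5G60990, 0.40 ± 0.08). IMP4 (AT1G63780), which in yeast works beside IMP3 on the U3 snoRNA, was not called (-0.11 ± 0.09, adjusted p = 0.350). PCN (POPCORN, AT4G07410), a WD40 protein homologous to yeast UTP4, was not called either (-0.0063 ± 0.09, adjusted p = 0.967). These are 2 of the 4 members with no called change in Col-0. In later maturation of the small subunit 1 of 4 listed members was measured, the PNO1 homologue AT3G13230, and it rose by 0.46 ± 0.09 (adjusted p = 0.00103).

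Of 14 members that act on the large subunit 13 rose in Col-0, with a median of 0.69 and 4 rises of at least 2-fold. AT3G15460, homologous to yeast BRX1, stood at 8.05, 8.14 and 8.19 at 23 °C and at 9.60, 9.43 and 9.60 at 4 °C (1.42 ± 0.09, 2.67-fold). AT4G26600, homologous to the RNA methyltransferase NOP2, stood at 5.42, 5.85 and 5.70 and at 6.82, 6.95 and 6.99 (1.26 ± 0.13, 2.40-fold). The same direction was seen for the second BRX1 homologue, AT1G52930 (1.12 ± 0.11), and for the helicase genes AT3G18600 (1.01 ± 0.10), AT5G65900 (0.78 ± 0.11) and AT1G77030 (0.70 ± 0.11).

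The homologues of NOP53 (AT2G40430), EBP2 (AT3G22660) and NOC2 (AT2G18220) and the ribosomal protein L7-like gene AT1G80750 rose by between 0.66 and 0.70. The PeBoW complex is needed for processing of the large-subunit RNA, and its genes rose by the least among those called in this role. PES (pescadillo, AT5G14520) rose by 0.33 ± 0.09, the BOP1 homologue AT2G40360 by 0.29 ± 0.08 and the WDR12 homologue AT5G15550 by 0.40 ± 0.085. AT1G25260, homologous to MRT4, was not called (-0.01 ± 0.08, adjusted p = 0.917). Among helicases outside these roles, PRH75, a nuclear DEAD-box RNA helicase gene, was not called (0.23 ± 0.13, adjusted p = 0.184), except with the replicate number as a block (adjusted p = 0.0440).

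**Figure D2:**
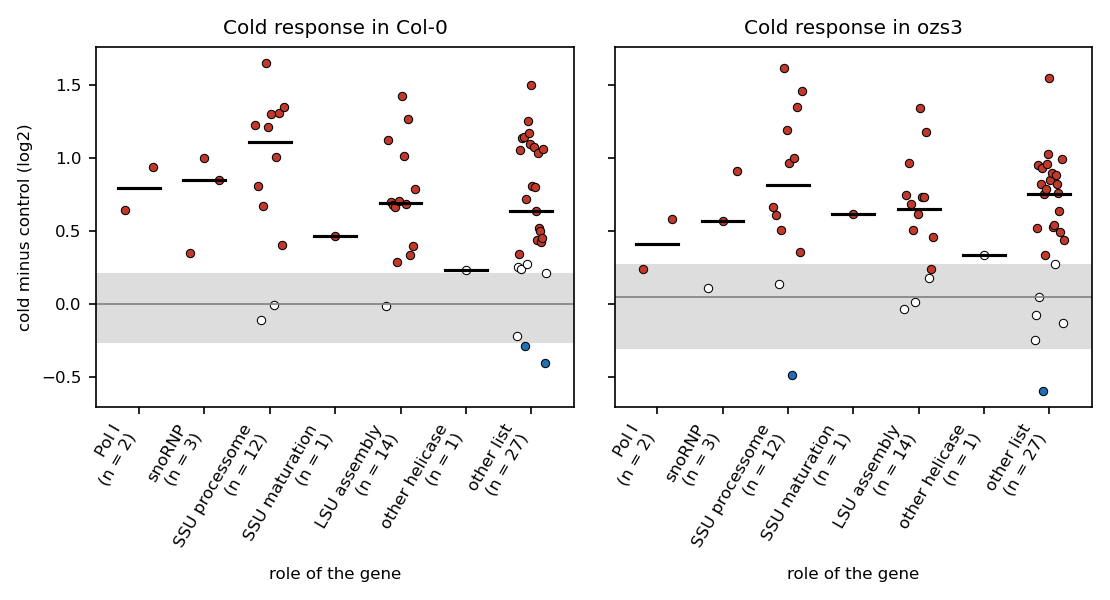
Difference between 4 °C and 23 °C (log2, y axis) for each gene by role (x axis) in Col-0 (left) and ozs3 (right). Red points were called higher, blue points lower and white points were not called; black bars are medians, the grey band spans the lower to the upper quartile of all 22746 probe sets and the grey line is their median. The median of the small-subunit processome is 1.11 in Col-0 and 0.81 in ozs3, and that of large-subunit assembly 0.69 and 0.65.

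In ozs3 roots most factors also rose in the cold. Of the 33 members 26 rose, 1 fell and 6 were not called, and the median difference was 0.61. Over all probe sets 24.9% were called higher and 26.2% lower, with a median of 0.05. For 28 members every cold array lay above every control array, as did 29.9% of all probe sets, and 7 members rose at least 2-fold, against 4.93% of all probe sets. With every array set to 1 common median the median of all probe sets in ozs3 moved by 0.13, to 0.18, the share of calls that were higher went from 48.8% to 66.1%, and 29 members were called higher and 1 lower. With ozs3 replicate 3 at 23 °C left out, the array that stood apart, the median over the members was 0.60.

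The members with the largest rises in ozs3 were in part those seen in Col-0, namely AT3G10530, YAO, AT5G38720 and AT3G15460, followed by AT3G57940. AT3G10530 stood at 7.62, 7.54 and 7.42 in ozs3 at 23 °C and at 9.09, 9.16 and 9.17 at 4 °C (1.61 ± 0.09, 3.06-fold, limma adjusted p = 8.42e-09). YAO stood at 8.26, 8.29 and 8.26 and at 9.79, 9.64 and 9.74 (1.45 ± 0.07, 2.74-fold). All cold arrays of both genes were above all control arrays by more than 1 log2 unit.

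AT5G38720 stood at 8.17, 8.14 and 7.92 in ozs3 at 23 °C and at 9.41, 9.43 and 9.43 at 4 °C (1.35 ± 0.09). AT3G15460 stood at 8.33, 8.28 and 8.07 and at 9.45, 9.60 and 9.64 (1.34 ± 0.09). AT4G02400 stood at 7.94, 7.89 and 8.01 and at 8.74, 9.10 and 8.91 (0.97 ± 0.15), and AT4G26600 at 5.68, 5.59 and 5.40 and at 6.82, 6.87 and 6.50 (1.17 ± 0.13). The groups did not overlap for these genes.

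PCN was the member that fell. It stood at 8.72, 8.61 and 8.57 in ozs3 at 23 °C and at 8.13, 8.20 and 8.10 at 4 °C (-0.49 ± 0.09, limma adjusted p = 3.10e-04). All its cold arrays lay below all its control arrays. Loss of PCN function is known to disturb embryo and meristem development.

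NRPA1 rose in ozs3 by 0.58 ± 0.08. NRPA2 stood at 8.08, 8.04 and 7.93 at 23 °C and at 8.40, 8.24 and 8.13 at 4 °C (0.24 ± 0.09, limma adjusted p = 0.0347), with no overlap. Among the ozs3 arrays, leaving out replicate 2 (adjusted p = 0.0656) or 3 (0.119) of the 23 °C group, or replicate 1 (0.140) or 2 (0.0585) of the 4 °C group, took NRPA2 out of the calls. A fit of these groups alone (0.0686) and array weights (0.0509) had the same effect. The rise of the WDR12 homologue AT5G15550 (0.24 ± 0.085, adjusted p = 0.0291) was likewise lost on leaving out replicate 3 (0.140) of the 23 °C group or replicate 1 (0.0503) or 3 (0.0955) of the 4 °C group, in a fit of these groups alone (0.0678) and under array weights (0.0592).

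The other PeBoW genes, PES (0.18 ± 0.09, adjusted p = 0.112) and AT2G40360 (0.01 ± 0.08, adjusted p = 0.898), were not called in ozs3, nor were AT3G03920 (0.11 ± 0.10), IMP4 (0.14 ± 0.09) and AT1G25260 (-0.04 ± 0.08). PES and IMP4 were called higher with 1 common median for all arrays (adjusted p = 0.00811 and 0.0297). PRH75 was just outside the threshold (0.33 ± 0.13, adjusted p = 0.0506), and was called with 1 common median (0.0122), in a fit of these groups alone (0.0371), with an intensity trend (0.0359), with array weights (0.0213), without dim probe sets (0.0453) and with the replicate number as a block (0.00615). Leaving out a single array brought PRH75 into the calls for replicate 1 at 23 °C (0.0491) and replicate 3 at 4 °C (0.0250) of Col-0, whose arrays share the estimate of spread, and for replicate 3 at 23 °C (0.0417) and replicate 1 at 4 °C (0.0233) of ozs3.

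The cold responses of both genotypes, which share no arrays, were set side by side. Of the 33 members 26 rose in both, 3 were called higher in Col-0 only (PES, AT2G40360 and AT3G03920), PCN was called lower in ozs3 only, and 3 were called in neither. Of all probe sets 20.4% were called higher in Col-0 and 24.9% in ozs3, so at most 20.4% were higher in both. The shares of all probe sets called in both genotypes, in 1 only or in neither were not computed. For PES, AT2G40360 and AT3G03920 the difference between the responses was not called (limma adjusted p = 0.476, 0.172 and 0.302). A difference between genotypes was thus not shown for these genes. Across the 33 members the changes correlated with r = 0.90, and across all 13355 genes with r = 0.84. Points of 1 axis share their arrays, and genes are not independent replicates. The difference was higher in Col-0 for 24 members and higher in ozs3 for 9, and with 1 common median for all arrays for 18 and 15.

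**Figure D3:**
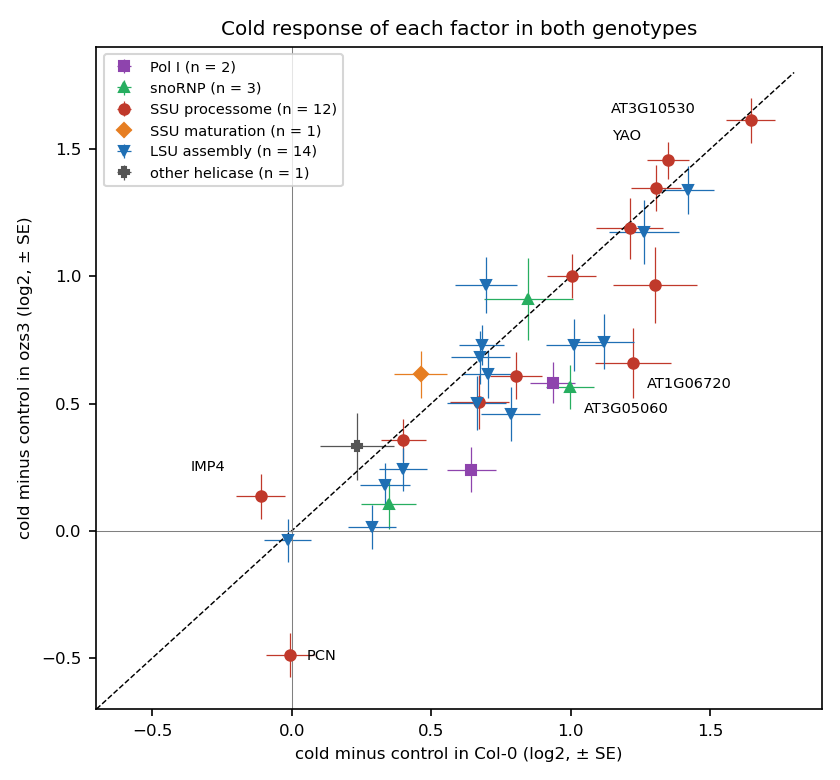
Difference between 4 °C and 23 °C in Col-0 (x axis) and in ozs3 (y axis) for the 33 factors, in log2 units with SE from limma; marker shapes give the role and the dashed line marks equal change. PCN lies at -0.0063 in Col-0 and -0.49 in ozs3, and 24 of 33 points lie below the line, against 18 if all arrays are given 1 common median.

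The interaction tested whether the cold response itself differed between the genotypes. It was called for 2 of 33 members, or 6.06%, against 10.1% of all probe sets. Both were lower in ozs3 and 0 were higher, while over all probe sets 5.82% were lower and 4.3% higher. The median over the members was -0.09, against 0.03 over all probe sets. With 1 common median for all arrays the share of interaction calls that were higher went from 42.5% to 64% over all probe sets, and the median over the members was -0.0076.

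The cold change of PCN was lower in ozs3 than in Col-0 (interaction -0.48 ± 0.12, limma adjusted p = 0.0255). Its Col-0 arrays stood at 8.52, 8.60 and 8.58 at 23 °C and at 8.40, 8.58 and 8.70 at 4 °C, which overlap. The call was lost on leaving out, at 23 °C, Col-0 replicate 1 (adjusted p = 0.0552), ozs3 replicate 1 (0.0686) or ozs3 replicate 2 (0.0524). At 4 °C it was lost for Col-0 replicate 2 (0.0509), Col-0 replicate 3 (0.0594) and ozs3 replicate 3 (0.0585).

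AT3G05060 rose by less in ozs3, where it stood at 9.97, 9.98 and 10.01 at 23 °C and at 10.54, 10.60 and 10.52 at 4 °C (0.56 ± 0.09; interaction -0.43 ± 0.12, limma adjusted p = 0.0374). At 23 °C its ozs3 arrays all lay above its Col-0 arrays (0.27 ± 0.09), a difference that was not called (adjusted p = 0.0772) except with array weights (0.0343). The interaction call was lost whichever of the 3 ozs3 arrays at 23 °C was left out (adjusted p between 0.0633 and 0.0760). The same held at 23 °C for Col-0 replicates 1 (0.0773) and 2 (0.0736), at 4 °C for Col-0 replicate 3 (0.0806) and ozs3 replicates 1 (0.0578) and 3 (0.0797), and for 1 common median (0.0913).

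Several further members had interactions that were not called. Those of NRPA1 (-0.35 ± 0.11, limma adjusted p = 0.0669) and NRPA2 (-0.40 ± 0.12, adjusted p = 0.0557) had the same sign, and that of AT1G06720 was the largest in size (-0.56 ± 0.19, adjusted p = 0.0820). AT1G06720 stood at 7.68, 7.20 and 7.68 in Col-0 at 23 °C and at 8.73, 8.66 and 8.84 at 4 °C. In ozs3 it stood at 7.76, 7.76 and 7.90 and at 8.20, 8.61 and 8.59, so that Col-0 replicate 2 at 23 °C and ozs3 replicate 1 at 4 °C were the arrays farthest from their groups. NRPA2 was called without dim probe sets (0.0470), with array weights (0.0182), with the replicate number as a block (0.0221) and on leaving out ozs3 replicate 1 at 4 °C (0.0285). NRPA1 was called with array weights (0.0426) and AT1G06720 with the block (0.0486). With ozs3 replicate 3 at 23 °C left out, AT1G52930 was called too (-0.49, adjusted p = 0.0423), and the median over the members was -0.17.

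Without cold the members differed between the genotypes by at most 0.29 in either direction. At 23 °C limma called 0 of 33 members between ozs3 and Col-0, against 6.34% of all probe sets (3.17% higher and 3.17% lower), and 4 members (12.1%) had an unadjusted p under 0.05, against 20% of all probe sets. The differences ran from -0.25 for AT1G77030 to 0.29 for AT1G06720, with a median of 0.08. They were above 0 for 24 members and for 10777 of all 22746 probe sets, and with 1 common median for 21 members. For 5 members every ozs3 array lay above every Col-0 array and for 1 below, against 12.6% and 13.4% of all probe sets. The absence of calls with 3 arrays per group does not show equal levels. AT3G05060 was called with array weights (0.27, limma adjusted p = 0.0343). AT1G52930 was called (0.40, adjusted p = 0.0409) on leaving out ozs3 replicate 3 at 23 °C, the array in which cold-regulated genes were high. Its ozs3 values at 23 °C were 10.27, 10.22 and 9.91. In Col-0 at 23 °C it stood at 9.95, 9.78 and 9.82, which overlaps with that array alone.

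At 4 °C 3 of 33 members differed between the genotypes, or 9.09%, against 14.6% of all probe sets. Of the members 1 was higher and 2 were lower in ozs3, and of all probe sets 6.42% and 8.2%. YAO was higher in ozs3 (0.29 ± 0.07, limma adjusted p = 0.0194), PCN was lower (-0.42 ± 0.09, adjusted p = 0.00591) and NRPA2 was lower (-0.29 ± 0.09, adjusted p = 0.0413). For all 3 genes the ozs3 arrays at 4 °C did not overlap with the Col-0 arrays at 4 °C. Over all members the arrays did not overlap for 3 that were higher and 7 that were lower in ozs3, as for 15.5% and 15.3% of all probe sets. The median over all 33 members was -0.07, and 0.02 over all probe sets. With 1 common median the median over the members was -0.0174, and the share of calls over all probe sets that were higher in ozs3 went from 43.9% to 60.7%.

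The PCN call at 4 °C held under every alternative run. YAO was no longer called on leaving out, at 4 °C, replicate 1 (adjusted p = 0.0536) or 2 (0.0634) of Col-0 or replicate 1 (0.0578) or 3 (0.0597) of ozs3, nor in a fit of these groups alone (0.0629). NRPA2 was no longer called when any 1 of 8 arrays was left out (adjusted p between 0.0508 and 0.158). These were Col-0 replicates 1 and 3 and ozs3 replicates 1 and 2 at 23 °C, and Col-0 replicates 1 and 2 and ozs3 replicates 2 and 3 at 4 °C. A fit of these groups alone (0.102) and 1 common median (0.0708) also took NRPA2 out of the calls. With the replicate number as a block PRH75 was called higher in ozs3 at 4 °C (0.30, adjusted p = 0.0328, against 0.162 without it), as it was on leaving out replicate 3 of the 4 °C Col-0 arrays (0.44, adjusted p = 0.0438).

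**Figure D4:**
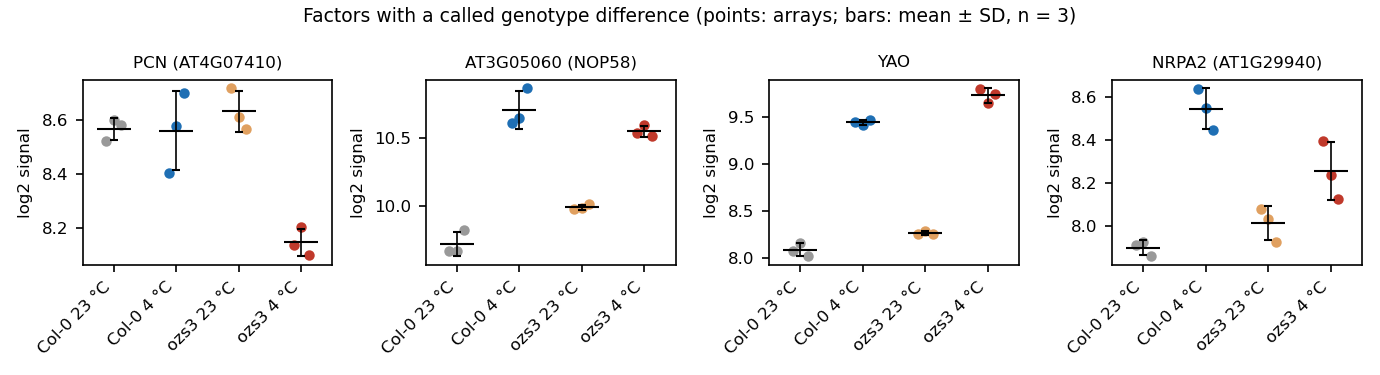
Log2 signal (y axis) of the 4 members called in the interaction or between genotypes at 4 °C, in each array (points) with mean ± SD of 3 replicates (black bars), by group (x axis); the y axes do not start at 0 and differ between panels. PCN is lowest in ozs3 at 4 °C, between 8.10 and 8.20, and YAO is highest there, between 9.64 and 9.79.

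The list held 6 pairs of gene copies, of which 3 had probe sets for both copies. The question was whether the copies responded alike to cold, and the cold change of the first copy minus that of the second was averaged over the genotypes and tested with temperature labels permuted within each genotype (exact permutation test, two-sided, 400 arrangements, smallest possible p = 0.005, adjusted over the 3 pairs). Each probe set is named for a single gene. Hybridization of a copy's RNA to the probes of the other copy was not tested. Nor was it tested whether the probe sets of a pair report the same RNA change with the same change in signal.

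In the BRX1 pair, AT3G15460 rose by 1.38 and AT1G52930 by 0.93 over both genotypes. AT1G52930 stood at 9.95, 9.78 and 9.82 in Col-0 at 23 °C and between 10.84 and 11.06 in the 3 arrays at 4 °C, and in ozs3 at 10.27, 10.22 and 9.91 and at 10.75, 10.99 and 10.89. The difference between the changes was 0.45 (exact permutation p = 0.005, adjusted p = 0.0075), 0.30 in Col-0 and 0.60 in ozs3, while the pair's log2 ratio varied between replicates with an SD of 0.09. Both copies rose, and the first rose more in both genotypes.

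In the NAT10 pair the second copy rose more. AT1G10490 stood at 7.25, 7.05 and 7.35 in Col-0 at 23 °C and at 8.08, 7.90 and 8.08 at 4 °C, and in ozs3 at 7.25, 7.17 and 7.19 and at 7.79, 7.90 and 7.75. AT3G57940 stood at 6.37, 6.10 and 6.58 and at 7.57, 7.49 and 7.61 in Col-0, and in ozs3 at 6.34, 6.33 and 6.38 and at 7.71, 7.33 and 7.57. The changes were 0.71 and 1.20, a difference of -0.49 (exact permutation p = 0.005, adjusted p = 0.0075), with -0.41 in Col-0 and -0.58 in ozs3 and an SD of 0.14 between replicates.

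In the HAS1 pair of RNA helicases, AT3G18600 rose by 0.87 and AT5G65900 by 0.62 over both genotypes. AT3G18600 stood at 9.50, 9.35 and 9.49 in Col-0 at 23 °C and at 10.49, 10.42 and 10.49 at 4 °C, and in ozs3 at 9.75, 9.61 and 9.45 and at 10.48, 10.37 and 10.14. AT5G65900 stood at 6.95, 7.09 and 6.91 and at 7.91, 7.67 and 7.72 in Col-0, and in ozs3 at 7.18, 7.01 and 7.18 and at 7.72, 7.67 and 7.36. The difference was 0.25 (exact permutation p = 0.01, adjusted p = 0.01), against an SD of 0.14 between replicates, and had the same sign in Col-0 (0.23) and ozs3 (0.27). In each of the 3 pairs both copies rose in both genotypes and the sizes of the signal changes differed.

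**Figure D5:**
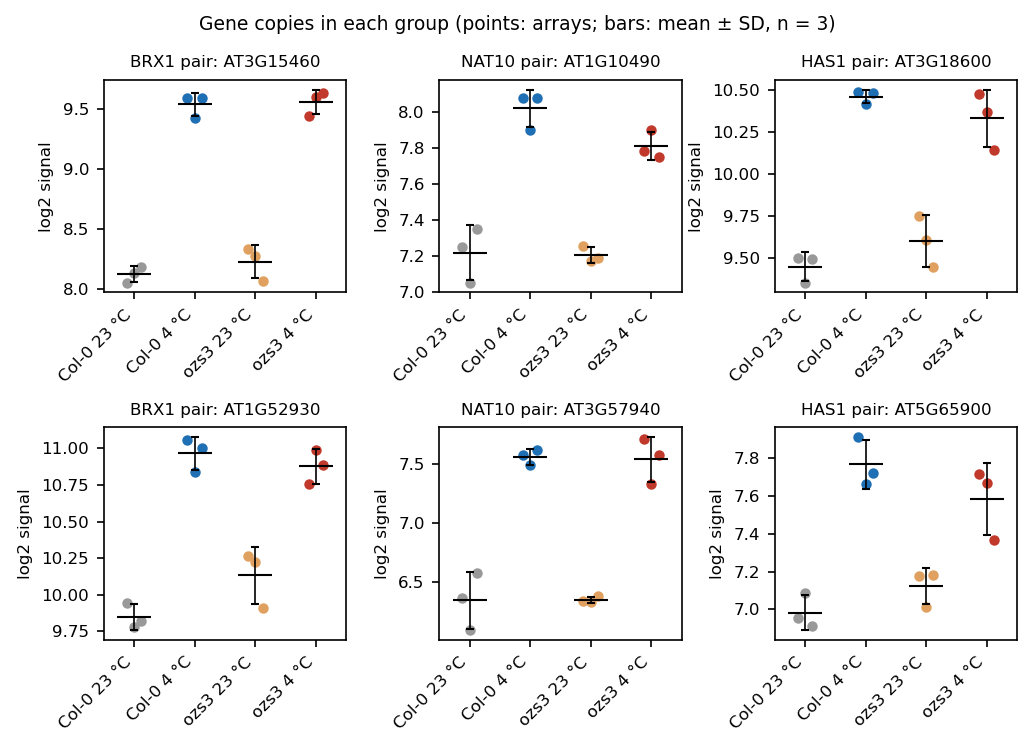
Log2 signal (y axis) of both copies in the 3 measured pairs, in each array (points) with mean ± SD of 3 replicates (black bars), by group (x axis); the y axes do not start at 0 and differ between panels. Every copy is higher at 4 °C than at 23 °C in both genotypes, with no overlap between the temperatures.

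A list of 51 further ribosome biogenesis genes, which holds none of the 57 members, had 27 genes with a probe set. In Col-0 20 of them rose and 2 fell in the cold, with a median of 0.64, and in ozs3 21 rose and 1 fell, with a median of 0.75. Of all probe sets 20.4% rose and 23.5% fell in Col-0, and 24.9% and 26.2% in ozs3. AT4G04940, homologous to the processome protein UTP21, rose by 1.49 ± 0.14 in Col-0 and by 1.55 ± 0.14 in ozs3. AT1G43860, related to the large-subunit factor SDO1, rose by 1.05 ± 0.08 and 0.95 ± 0.08, and the MPP10 homologue AT5G66540 by 1.06 ± 0.08 and 0.99 ± 0.08. AT4G28450, homologous to SOF1, a U3-associated protein of yeast, rose by 0.64 ± 0.11 and 0.54 ± 0.11 and was not called between the genotypes at 23 °C (0.08, adjusted p = 0.751) or at 4 °C (-0.02, adjusted p = 0.941).

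The genes of that list that were called lower were DIM1A and AT2G34750. DIM1A, an RNA dimethyltransferase gene, fell in Col-0 (-0.41 ± 0.09, limma adjusted p = 0.00276) and was not called in ozs3 (-0.13 ± 0.09, adjusted p = 0.258). AT2G34750, homologous to the RNA polymerase I initiation factor RRN3, fell in both (-0.29 ± 0.10 in Col-0, limma adjusted p = 0.0253, and -0.60 ± 0.10 in ozs3, adjusted p = 1.31e-04). AT2G34750 thus moved against NRPA1 and NRPA2, the polymerase subunits, in both genotypes. Between the genotypes 0 of the 27 were called at 23 °C by limma, and 3 (11.1%) had an unadjusted p under 0.05, against 6.34% and 20% of all probe sets. At 4 °C 2 (7.41%) were called, against 14.6% of all probe sets. Those 2 were the NLE homologue AT5G52820, higher in ozs3 (0.27, adjusted p = 0.0194), and AT3G06530, homologous to UTP10, lower (-0.44, adjusted p = 0.0143). The interaction was called for 0 of the 27 by limma, with 4 (14.8%) at an unadjusted p under 0.05, against 10.1% and 25.6% of all probe sets.

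Markers of other cells were examined beside these results. None of 19 listed genes of dividing cells and the root tip had a named probe set, so the share of dividing cells was not tested, and in whole roots more cells of a type and more RNA per cell cannot be told apart. The mean of 3 shoot photosynthesis genes (of 9 listed) was between 5.04 and 5.49 in Col-0 at 23 °C, 4.98 and 5.15 in Col-0 at 4 °C, 5.09 and 5.18 in ozs3 at 23 °C, and 5.04 and 5.18 in ozs3 at 4 °C. RCA, the gene of Rubisco activase and 1 of these 3, fell in Col-0 in the cold (-0.62, limma adjusted p = 0.00854). PRK and SBPASE were not called in the cold in either genotype. Their means over the 12 arrays, 4.43 and 4.05, were below the cut of 5 used for dim probe sets, while that of RCA was 6.96. The mean of 3 root hair genes (of 6 listed) was between 8.83 and 9.14 in Col-0 at 23 °C, 8.02 and 8.62 in Col-0 at 4 °C, 8.58 and 9.17 in ozs3 at 23 °C, and 7.79 and 8.40 in ozs3 at 4 °C. Of these root hair genes EXPA18 (-0.92 in Col-0 and -0.65 in ozs3) and XTH26 (-0.81 and -1.83) fell in the cold in both genotypes, while EXPA7 was not called in Col-0 (-0.10, limma adjusted p = 0.702) or in ozs3 (0.43, adjusted p = 0.0568). At 4 °C XTH26 was lower in ozs3 than in Col-0 (-1.28, limma adjusted p = 0.00520) and EXPA7 was not called (0.55, adjusted p = 0.0540). The part of these markers in the results above was not tested.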

How the data were processed

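The authors deposited log2 values, 1 for each probe set on each array, from RMA, per the submitters' processing notes. RMA corrects for background, normalizes across arrays and summarizes the probes of a set; no version is named, and the log2 scale was read from the values (2.91 to 15.0). Biotin-labelled cRNA came from 100 ng of total RNA, per the labels' protocols. The number of arrays limits the precision.

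After 64 Affymetrix controls were left out, 22746 probe sets were tested with limma 3.58.1 in R 4.3.3: a group-means model on all 12 arrays (8 residual and 5.42 prior degrees of freedom), 5 contrasts, and Benjamini-Hochberg adjustment over all probe sets within each contrast. The test was run on simulated data with independent noise for every value, which is no check of the calls in these data. Of the probe sets 13513 had 1 gene name in the probe table, 503 had several and 8730 had none; 13436 had a locus in the TAIR10.1 gene table, used only for names. A gene was represented by its brightest probe set.

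The members and lists were chosen with earlier results of these data known, so no pattern is independent support. Per-array values are given for the 5 members with the largest called rise and fall per contrast, pairs of gene copies and called members that moved against the majority. AT1G06720 and NRPA1 were given per array, and DIM1A and AT2G34750 named, after their values were seen. Roles of genes without a symbol in the annotation come from general knowledge of Arabidopsis genes and their yeast homologues, not from the files. Sequences of promoters and proteins were not used here, so a planned search for promoter motifs was not made.

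Equal replicate numbers were checked by correlating, across probe sets, how far arrays with the same number lay from the means of their groups. The correlations were 0.195 to 0.273 for the cold response in Col-0. For the genotype comparisons they were 0.294 to 0.473 at 23 °C and 0.198 to 0.353 at 4 °C. For the cold response in ozs3 they were 0.32, 0.0809 and 0.31 in replicates 1, 2 and 3. Arrays with unequal numbers were not correlated for comparison, so the check cannot decide whether equal numbers pair samples. The main fits used no pairing in any comparison, and the replicate number as a block was run as an alternative. Alternatives are given in the closing section.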

Additional observations from a re-analysis of the deposited data

Results flagged for a closer look

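Among the members, 2 had a cold response that differed between the genotypes by the interaction test in limma. For PCN (AT4G07410) the response in ozs3 minus that in Col-0 was -0.48 (adjusted p = 0.0255), with all 3 ozs3 cold arrays below all 3 ozs3 control arrays. For AT3G05060 it was -0.43 (adjusted p = 0.0374), with a rise in both genotypes. Both calls ended when any of several single arrays was left out.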

How the results depend on the processing

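The counts of members that rose in the cold changed little. Over 19 alternatives in Col-0, 28 of the 29 calls held throughout, and in ozs3 25 of the 27. With single arrays left out, the members called were 28 to 29 in Col-0 and 26 to 28 in ozs3. With 1 common median the median over members in ozs3 in the cold was 0.75. All 3 pairs of gene copies kept their sign and their side of the threshold under each alternative run, the replicate block included (pairs permuted as signs of replicate differences, 64 arrangements). No member had a second probe set, so that alternative gave no value.

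Comparisons between genotypes depended on the setting, and causes were not tested. At 23 °C the probe sets called were 1442, but 2253 with the replicate number as a block and 2323 with array weights, where 1 member was called higher; with single arrays left out they were 767 to 1551, with 0 to 1 members. At 4 °C the block gave 2 members higher. With only the arrays compared 1 member was called, 0 higher and 1 lower. With 1 common median 1 was lower and the median over members was -0.0174. Single arrays left out gave 1 to 4 members (0 to 2 higher, 1 to 2 lower) and 2227 to 3467 probe sets. Over all alternatives at 4 °C the probe sets called were 2227 to 4370, against 3326 of 22746 in the main fit. For the interaction 4 members were called with the replicate number as a block, 4 with array weights and 1 with 1 common median (median over members -0.0076). Single arrays left out gave 0 to 2 members, medians from -0.166 to -0.0517 and 1439 to 2279 probe sets. Over all alternatives for the interaction the probe sets called were 1439 to 3379, against 2300 of 22746 in the main fit. The number of members called was thus not set apart from the number over all probe sets, which changed with the setting too. The check of equal replicate numbers did not decide whether they pair samples, and it was not made for the interaction as such. The block changed no other call of a member beside those named above. A further alternative gave all arrays the same distribution of values (quantile normalization, repeated on the deposited values). Unlike 1 common median, it changed no call of a member in any comparison.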
